A study of Mus musculus with 2 samples.

Results

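The genes described here are the 38 chaperones, folding enzymes, degradation components and stress transducers of the endoplasmic reticulum (ER) chaperone and unfolded protein response module, out of 27998 gene rows in each of 2 single-cell count matrices. They were taken by gene symbol, and all 38 were present in both matrices. The samples are islets of C57BL/6 mice at postnatal day 70. One library came from wild type mice, and the other from mice that carry a transgene overexpressing the microRNA miR-503 in beta cells, so that alpha, delta and gamma cells of that library are not the cells the labels name as the site of overexpression. The number of mice behind each library, their sex and the promoter driving the transgene were not stated in the labels. A genotype is represented by 1 library, so a difference between genotypes has no replicate check: no p-value was computed, and every interval below is a 95% interval for counting error only.

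Insulin is made as a precursor that is moved into the ER, folded, cross-linked by disulfide bonds and passed on to the secretory granule, so beta cells carry a heavy folding load. When unfolded protein builds up, 3 kinds of sensor in the ER membrane respond: IRE1 splices the messenger RNA of the transcription factor XBP1, ATF6 is cut free to act in the nucleus, and PERK slows translation while allowing that of ATF4. XBP1 and ATF6 are known for raising chaperones, folding enzymes and ER-associated degradation, which removes misfolded protein from the ER, whereas ATF4 is known for raising amino acid metabolism genes and the factors CHOP (Ddit3) and ATF5. Accordingly 26 members were summed as the chaperone branch and 6 (Atf4, Atf5, Ddit3, Trib3, Chac1 and Asns) as the ATF4 branch, and Ero1l, Ero1lb, Atf6, Atf6b, Ern1 and Eif2ak3 stand outside both sums.

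The libraries held 4540 wild type and 4158 transgenic barcodes with 104677537 and 109243270 unique molecular identifiers (UMIs, each 1 captured RNA molecule), and 25 barcode sequences occurred in both. Filtering left 4339 and 3977 cells (median depth 21496 and 24583 UMIs). A cell was called beta where Ins1 and Ins2 made up at least 25% of its UMIs, alpha where Gcg reached 3%, delta where Sst reached 2% and gamma where Ppy reached 3%. Cells that passed several limits, 231 and 356, were left out. This gave 3193 wild type and 2624 transgenic beta cells, 399 and 583 alpha, 76 and 99 delta, and 117 and 103 gamma cells. All levels are in CPM, UMIs per 1000000 UMIs outside the 5 hormone genes Ins1, Ins2, Gcg, Sst and Ppy. Each class was checked against markers that the limits did not use. The delta factor Hhex stood at 159 and 178 CPM in delta cells and at most 13.98 CPM elsewhere, and the alpha marker Ttr at 43529 and 49180 CPM in alpha cells and at most 4117 CPM elsewhere. The gamma marker Etv1 did not set gamma cells apart (139 and 174 CPM, against 173 and 178 in alpha cells), although Pyy did (81201 and 97437 CPM, against at most 31631 in the other classes). Insulin CPM in alpha, delta and gamma cells came to 4.46%, 6.80% and 9.12% of the beta cell level in the wild type library and to 2.62%, 2.81% and 5.03% in the transgenic one. Free RNA, doublets and a cell's own insulin cannot be told apart in this share. Xist, the RNA of the inactive X chromosome, had 12 UMIs in the wild type and 6415 in the transgenic library, so the sex of the mice and the genotype cannot be told apart.

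The branches are known by different elements in the promoters of their targets. The following motifs were searched on both strands in the 250 bases before each gene's start: the ER stress response element, ERSE, as CCAAT and CCACG with 9 bases of any kind between them; the second such element, ERSE-II, as ATTGG and CCACG with 1 base of any kind between them; the unfolded protein response element, UPRE, as TGACGTGG; and the element shared by CHOP, ATF4 and related factors, CARE, as TGATGNAA. RefSeq promoters on GRCm38.p6 (mm10) were found for 31 of the 38 members, and Hyou1, Manf, Ero1l, Ero1lb, Derl1, Kdelr2 and Atf6 had none in the table used. ERSE letters were present for 9 of these 31 genes (Hspa5, Hsp90b1, Calr, Canx, Creld2, Dnajc3, Pdia6, Derl3 and Syvn1) against 0.113% of 32851 promoters, and all 9 lie among the 22 chaperone branch genes that had a promoter. ERSE-II letters were found for Herpud1 (0.0304% of promoters), UPRE letters for Kdelr3 (0.563%) and CARE letters for Asns, Chac1 and Herpud1 (3.45%). A selection of the windows is shown, each 5′ to 3′ on the named strand with 12 bases on either side and the fixed letters of the motif in capitals. Those of Hsp90b1, Canx, Dnajc3 and Pdia6 and the CARE window of Herpud1 are not printed. A match describes these letters and is not shown to be a bound site.
Hspa5, ERSE, chr2:34772013-34772055, plus strand: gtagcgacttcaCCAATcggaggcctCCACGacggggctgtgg
Calr, ERSE, chr8:84847063-84847105, plus strand: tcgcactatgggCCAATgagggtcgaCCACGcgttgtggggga
Creld2, ERSE, chr15:88819508-88819550, minus strand: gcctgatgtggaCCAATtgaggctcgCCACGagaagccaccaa
Syvn1, ERSE, chr19:6046520-6046562, plus strand: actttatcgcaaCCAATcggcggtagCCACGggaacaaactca
Derl3, ERSE, chr10:75893230-75893272, minus strand: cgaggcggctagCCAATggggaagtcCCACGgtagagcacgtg
Herpud1, ERSE-II, chr8:94386365-94386399, plus strand: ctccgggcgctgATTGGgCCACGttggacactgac
Kdelr3, UPRE, chr15:79516366-79516397, minus strand: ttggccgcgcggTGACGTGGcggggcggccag
Chac1, CARE, chr2:119351037-119351068, minus strand: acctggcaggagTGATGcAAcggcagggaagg
Asns, CARE, chr6:7693213-7693244, minus strand: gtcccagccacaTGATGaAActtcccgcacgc
The ERSE of Hspa5 ends 47 bases before the RefSeq start of the gene and that of Syvn1 26 bases before it, whereas the one of Calr ends 144 bases before its start and reads on the opposite strand to the gene. The CARE of Asns ends 16 bases before the start and that of Chac1 186 bases before it.

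Beta cells carried more of both branches than the other endocrine classes, and the margin was wider for the ATF4 branch. The chaperone branch summed to 14773 CPM in wild type and 15549 CPM in transgenic beta cells, against 7629 and 6943 in alpha, 7926 and 7850 in delta, and 7856 and 7243 in gamma cells. That is a log2 ratio of beta over alpha cells of 0.95 in the wild type library and 1.16 in the transgenic one. The ATF4 branch summed to 2027 and 1993 CPM in beta cells, 577 and 524 in alpha, 691 and 558 in delta, and 747 and 609 in gamma cells, a log2 ratio of beta over alpha cells of 1.81 and 1.93. For both branches the beta cell sums lay above those of every other class in both libraries. A list of 15 immediate early and dissociation stress genes was also highest in beta cells, at 19312 and 21233 CPM. It stood at 10864 and 8002 CPM in alpha, 17603 and 17549 in delta, and 11238 and 9925 in gamma cells. Its part in the margins of the branches was not tested. Hspa5, the main ER Hsp70 chaperone, supplied 21.9% of the chaperone branch UMIs in wild type and 21.8% in transgenic beta cells, and Ddit3 supplied 49.9% and 51.7% of the ATF4 branch. Taken by gene, 29 of 38 members were at least 1.5-fold higher in beta than in alpha cells in both libraries and 0 were lower, where 22.8% of 10974 genes were higher and 7.77% lower. Over delta cells the members' count was 27 higher and 0 lower (13.1% and 11.5% of all genes), and over gamma cells 22 higher and 1 lower (14.9% and 6.69%). The members' median log2 ratio of beta over alpha cells was 1.15 and 1.36, against 0.26 and 0.23 for all genes.

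These margins depend on what the levels are divided by, because insulin alone takes 50.9% of all UMIs of wild type and 60.2% of those of transgenic beta cells. With all UMIs as the total, hormones included, the log2 ratio of beta over alpha cells was 0.32 and 0.26 for the chaperone branch and 1.18 and 1.02 for the ATF4 branch, 14 members were at least 1.5-fold higher and 1 lower, and the chaperone branch in transgenic beta cells turned to the other side of delta cells (-0.10). The share of all genes past 1.5-fold with this total is not given, so the count of members has no background. The ATF4 branch stayed higher in beta cells against all 3 classes on this scale, by 0.75 to 1.18.

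**Figure D1:**
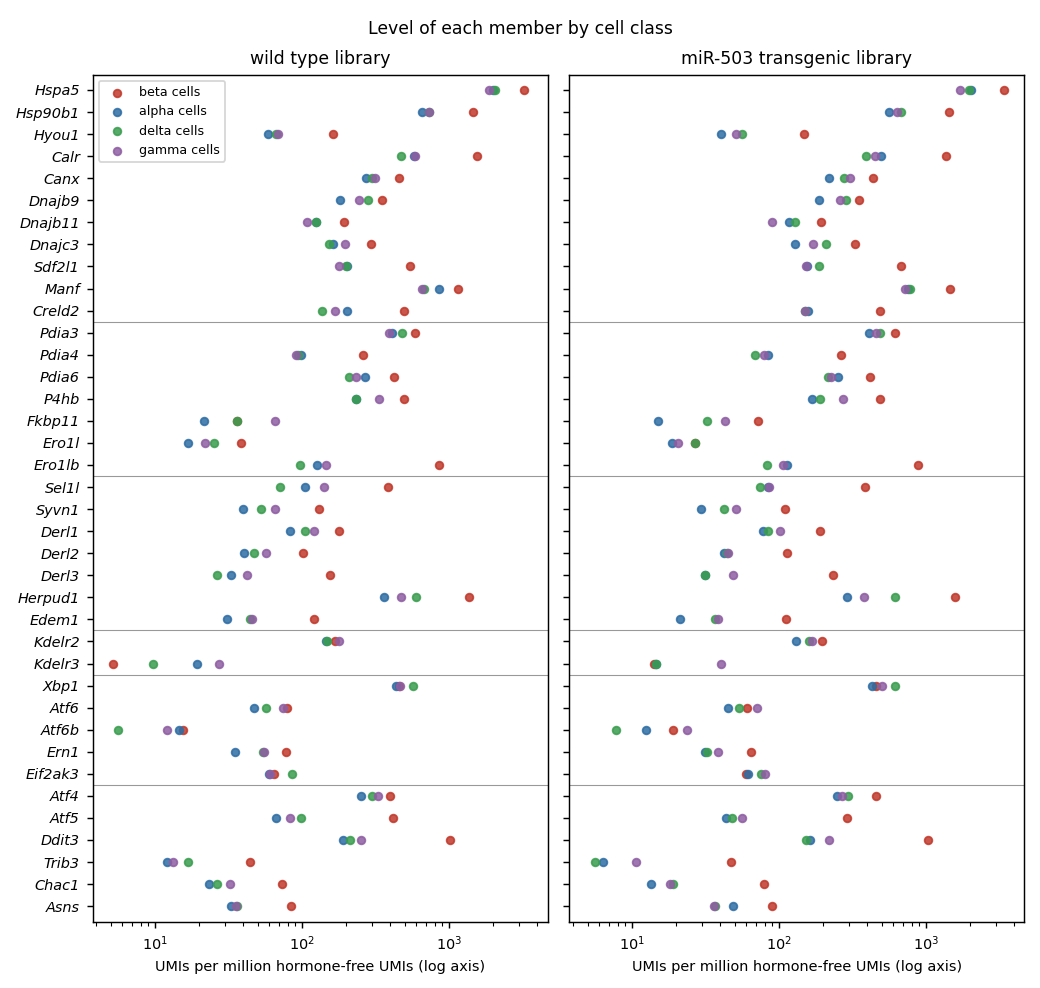
Level of each of the 38 members in CPM (log axis) in the wild type library (left) and the miR-503 transgenic library (right), with 1 point per cell class and lines between roles (chaperones, folding enzymes, degradation, retrieval receptors, sensors, ATF4 branch). The beta cell point lies rightmost for 31 members in both libraries, and Fkbp11, Kdelr2, Kdelr3, Xbp1, Atf6, Atf6b and Eif2ak3 are the exceptions.

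Among the chaperones, Hspa5 stood at 3228 CPM in wild type and 3390 CPM in transgenic beta cells, 2001 and 2041 in alpha cells, 2061 and 1980 in delta cells, and 1870 and 1702 in gamma cells. The 3 non-beta classes were close together, and beta cells stood above them in both libraries. Calr, the lectin chaperone that binds glycoproteins, was at 1549 and 1381 CPM in beta cells and between 391 and 592 CPM in the other classes. Sdf2l1, a partner of Hspa5, was at 547 and 674 CPM in beta cells and between 153 and 202 CPM elsewhere. Of the 11 chaperones and cochaperones, 10 passed the 1.5-fold limit over alpha cells in both libraries. The remaining one, Manf, a secreted protein that also binds Hspa5 in the ER, was at 1154 and 1468 CPM in beta and 859 and 754 CPM in alpha cells, and passed in the transgenic library alone.

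The folding enzymes held the widest margin of the module. Ero1lb, the oxidase that recharges the disulfide isomerases and is known as the pancreatic form, was at 859 and 890 CPM in beta cells, against 126 and 113 in alpha, 97.7 and 83.8 in delta, and 146 and 106 in gamma cells. Its log2 ratio of beta over alpha cells was 2.77 (2.65 to 2.88) and 2.98 (2.87 to 3.09). Its broadly expressed relative Ero1l was at 38.5 and 26.8 CPM in beta and 16.8 and 18.7 CPM in alpha cells, and did not pass in both libraries. Neighbouring enzymes were not set apart to the same degree. The isomerase Pdia4 was 2.65-fold and 3.14-fold higher in beta than in alpha cells, whereas Pdia3, the isomerase that works with Calr and Canx on glycoproteins, was higher by 0.53 and 0.58 on the log2 scale and was not counted, the limit lying at 1.5-fold in both libraries.

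Every one of the 7 degradation components was at least 1.5-fold higher in beta than in alpha cells in both libraries. Derl3, a derlin of the degradation machinery, was at 156 and 233 CPM in beta cells and between 26.5 and 48.5 CPM in the other classes. Sel1l, the adaptor of the ubiquitin ligase Syvn1, was at 387 and 384 CPM in beta cells and between 71.2 and 142 CPM elsewhere. Herpud1, which organises the same complex, was at 1378 and 1579 CPM in beta cells and 363 and 291 CPM in alpha cells, with delta and gamma cells between them.

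The sensors and their factors did not follow their targets. Xbp1 was at 455 and 455 CPM in beta cells, 438 and 430 in alpha, 569 and 621 in delta, and 462 and 501 in gamma cells, so that delta cells were highest. Its log2 ratio of beta over alpha cells was 0.06 (-0.01 to 0.12) and 0.08 (0.02 to 0.14). Eif2ak3, which encodes PERK, was at 64.1 and 59.5 CPM in beta cells and 60.1 and 61.5 in alpha cells, with both counting intervals of the ratio spanning 0. The single sensor that passed against alpha cells was Ern1, which encodes IRE1, with 77.9 and 64.2 CPM in beta and 35.2 and 31.5 CPM in alpha cells. These are levels of RNA: the splicing of Xbp1, the cutting of Atf6 and the translation of Atf4 are not read by a count of 3 prime ends.

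The ATF4 branch was led by Ddit3 and Atf5. Ddit3, the stress factor CHOP, was at 1011 and 1029 CPM in beta cells, 191 and 164 in alpha, 214 and 153 in delta, and 252 and 218 in gamma cells. Atf5, a related factor, was at 418 and 291 CPM in beta cells and between 44.0 and 99.1 CPM elsewhere. Atf4 itself differed less, with 397 and 456 CPM in beta and 252 and 248 CPM in alpha cells (0.66 and 0.88 on the log2 scale). The targets Trib3, a pseudokinase, Chac1, which breaks down glutathione, and Asns, which makes asparagine, were all higher in beta than in alpha cells, by 1.86, 1.66 and 1.35 in the wild type and 2.88, 2.56 and 0.90 in the transgenic library. Subtracting beta cell RNA in proportion to the insulin UMIs of each class, an alternative chosen after seeing the data that takes all of that insulin as free RNA, gave 29 and 0 calls against alpha cells and larger margins (1.02 and 1.21 for the chaperone branch, 1.99 and 2.04 for the ATF4 branch).

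**Figure D2:**
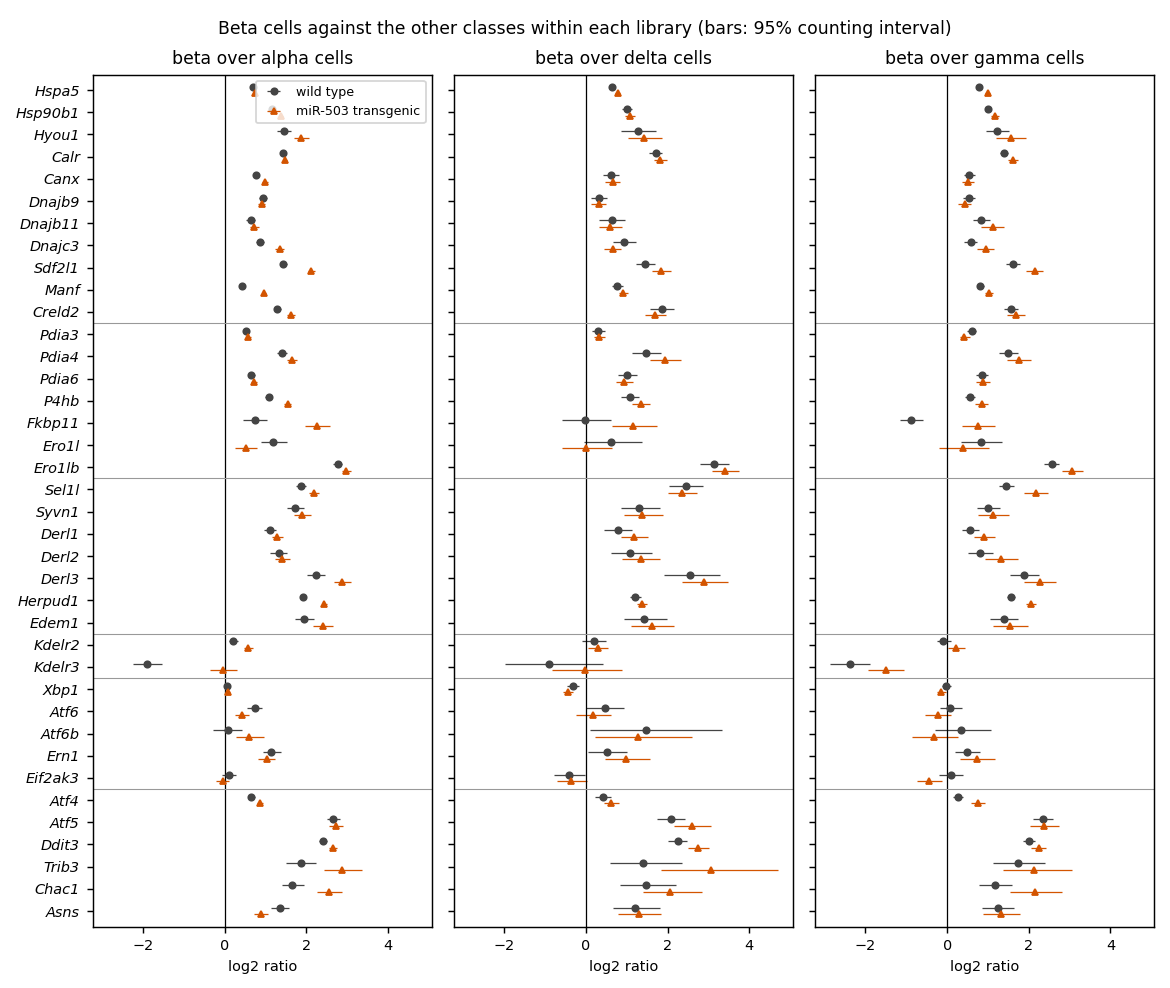
Log2 ratio of beta over alpha (left), delta (middle) and gamma cells (right) for each member, with circles for the wild type and triangles for the miR-503 transgenic library and bars for the 95% counting interval. Most members lie right of 0 in all 3 panels, Ero1lb, Derl3, Atf5 and Ddit3 farthest, whereas Xbp1 and Eif2ak3 lie near 0 and Kdelr3 lies left of it over gamma cells.

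Kdelr3 was the exception on the low side. It encodes one of the receptors that return escaped chaperones from the Golgi to the ER, and had 204 UMIs in all wild type and 464 in all transgenic beta cells. Its level was 5.20 and 14.2 CPM in beta cells, 19.4 and 14.6 in alpha, 9.77 and 14.5 in delta, and 27.2 and 40.3 in gamma cells. Gamma cells were the highest class in both libraries, followed by alpha, delta and beta cells; these last 3 classes lay apart in the wild type and within 0.04 of each other on the log2 scale in the transgenic library, and delta cells gave only 7 and 13 UMIs. Its relative Kdelr2 was at 169 and 196 CPM in beta and 147 and 131 CPM in alpha cells, 0.20 and 0.58 higher in beta cells, and did not pass the limit in both libraries.

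In beta cells the chaperone branch was slightly higher in the transgenic library and the ATF4 branch nearly equal. The log2 ratio of transgenic over wild type was 0.07 (0.07 to 0.08) for the chaperone branch and -0.02 (-0.04 to -0.01) for the ATF4 branch. All 38 members had the 100 UMIs asked for, and 4 were at least 25% higher (Manf, Fkbp11, Derl3 and Kdelr3) and 3 at least 20% lower (Ero1l, Atf6 and Atf5), the limits used throughout for genotypes and bins (0.32 on the log2 scale), where 11% of 11902 genes were higher and 11.8% lower. The members' counts are therefore near the share of all genes, and their median of 0.03 lay near that of all genes (-0.02).

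The 4 higher members sat in different parts of the ER. Fkbp11, a proline isomerase of secretory cells, was at 35.9 CPM in the wild type and 72.3 CPM in the transgenic library, a log2 ratio of 1.01 (0.92 to 1.11). Kdelr3 went from 5.20 to 14.2 CPM (1.45, 1.21 to 1.69), and Derl3 from 156 to 233 CPM (0.58, 0.53 to 0.63). Manf, at 1154 and 1468 CPM, lay just inside the limit with 1.27-fold, and Sdf2l1, at 547 and 674 CPM, just outside it with 1.23-fold. Hspa5, Hsp90b1, Creld2, Pdia4, Pdia6, P4hb and Sel1l were all within 0.08 of 0. On the low side, Atf5 was at 418 and 291 CPM (-0.52, -0.56 to -0.49), Ero1l at 38.5 and 26.8 CPM (-0.52) and Atf6 at 78.6 and 60.8 CPM (-0.37). Atf5 was the ATF4 branch member that differed most, while Atf4 was at 397 and 456 CPM (0.20) and Ddit3, Trib3, Chac1 and Asns all lay between 0.03 and 0.12.

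Depth scaling sets the sign of much of this. With all UMIs as the total, the median of all genes in beta cells moved to -0.33, the chaperone branch to -0.24 and the ATF4 branch to -0.34. On that scale 2 members were called higher and 15 lower, where 429 of 11902 genes were higher and 6110 lower. Fkbp11 (0.70) and Kdelr3 (1.14) were above the limit under both scalings, Derl3 (0.27) and Manf (0.04) dropped inside it, and Atf5, Ero1l and Atf6 were lower under both. Relative to the median of all genes, the chaperone branch then stood at 0.09 and the ATF4 branch at -0.0053.

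Several other measures moved with genotype in beta cells, and their part in these results was not tested. The summed acinar markers were at 70.2 CPM in the wild type and 221 CPM in the transgenic library, with 11 and 12 of 12 genes having a UMI and Amy2a2 at 0 in the wild type. Acinar cells make much secretory machinery, so the level that would come with that RNA was computed from the 4 cells, all of the transgenic library, in which acinar markers took at least 10% of UMIs. If acinar RNA had the makeup of those cells, it would give transgenic beta cells 0.0820 CPM for Fkbp11, 0.0328 CPM for Kdelr3 and 0.0164 CPM for Derl3. These values are rough. In the 4 cells the genes stood at 92.0, 36.8 and 18.4 CPM on few UMIs, and cells scored as doublets were not left out. The part of acinar RNA in the ratios was not tested. The median share of mitochondrial UMIs was 3.23% and 2.03%, and the list of 15 genes of dissociation stress summed to 19312 and 21233 CPM.

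In alpha cells most members were lower in the transgenic library. The ratio lay below 0 for 31 of 38 members, with a median of -0.22 against 0.02 for all genes, and 11 members were past the limit on the low side and 1 on the high side, where 8.66% of 8140 genes were lower and 12% higher. The lower ones were Hyou1, Sdf2l1, Creld2, P4hb, Fkbp11, Syvn1, Edem1, Kdelr3, Atf5, Trib3 and Chac1. The isomerase P4hb went from 234 to 167 CPM (-0.48) and Sdf2l1 from 202 to 155 CPM (-0.38). Asns was the higher one, at 32.9 CPM in the wild type and 48.4 CPM in the transgenic library (0.56, 0.29 to 0.84), although Trib3 and Chac1 of the same branch stood at 12.1 and 6.39 CPM and at 23.3 and 13.5 CPM. The summed branches were 0.14 lower each. The dissociation stress list moved the same way in these cells, from 10864 to 8002 CPM, and insulin CPM in them was 4.46% and 2.62% of the beta cell level. With beta cell RNA subtracted in proportion to insulin, the counts were again 11 lower and 1 higher, with Dnajc3 in place of Trib3, the chaperone branch was at -0.12 and the ATF4 branch at -0.07. The part of the stress list in the result was not tested.

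**Figure D3:**
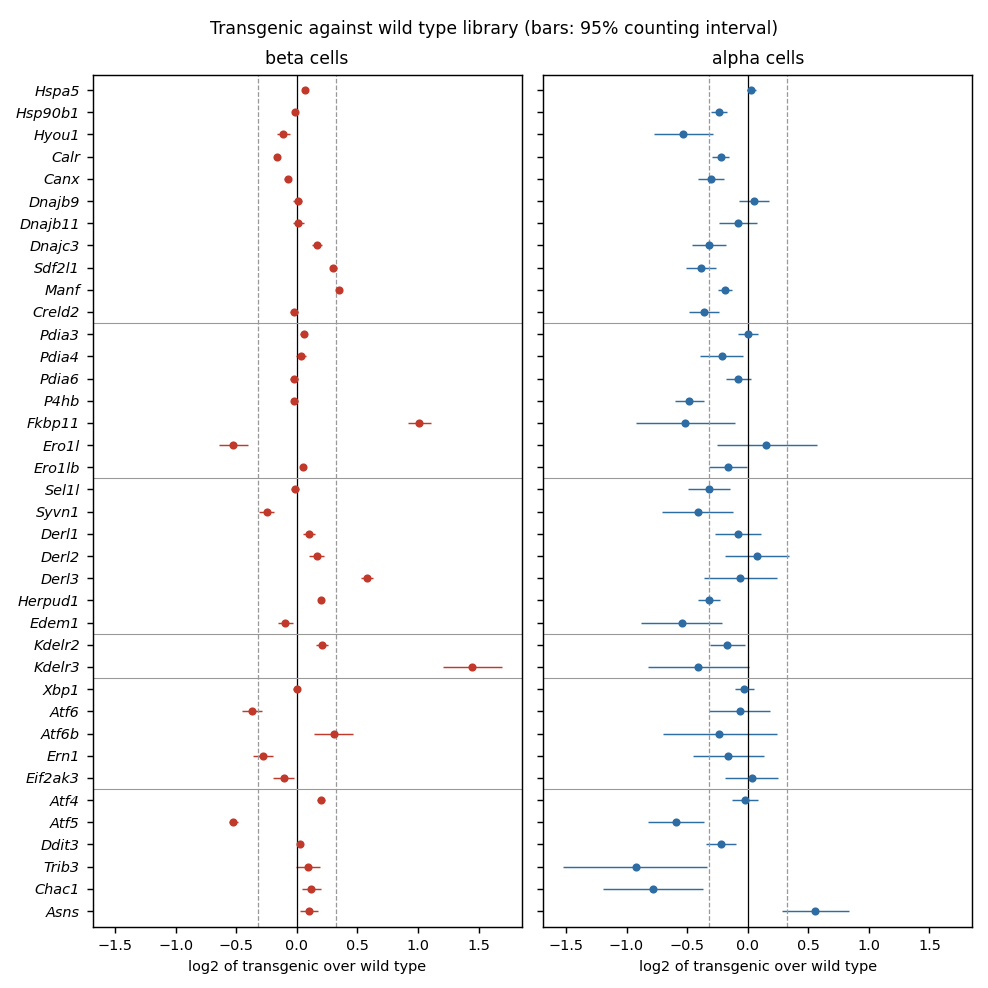
Log2 ratio of the miR-503 transgenic over the wild type library for each member in beta cells (left) and alpha cells (right), with bars for the 95% counting interval and dashed lines at 25% higher and 20% lower. In beta cells Fkbp11 and Kdelr3 lie right of 1, and in alpha cells most points lie left of 0 with Trib3 and Chac1 farthest and Asns on the right.

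Delta and gamma cells are few, and 24 and 33 members reached 100 UMIs there. In delta cells the cochaperone Dnajc3 was higher in the transgenic library and Pdia4, Atf5 and Ddit3 were lower, that is 1 and 3 members where 11.1% and 9.12% of all genes were called. In gamma cells Eif2ak3 was higher and 9 members were lower (Hyou1, Calr, Fkbp11, Ero1lb, Sel1l, Syvn1, Derl2, Ern1 and Atf5), where 12.4% and 13.8% of genes were called. Atf5 was the one member called lower in all 4 classes. It went from 66.1 to 44.0 CPM in alpha, from 99.1 to 48.0 CPM in delta and from 82.7 to 55.9 CPM in gamma cells, log2 ratios of -0.59, -1.05 and -0.57 beside -0.52 in beta cells. The delta value rests on 71 and 43 UMIs. With beta cell RNA subtracted in proportion to insulin, Atf5 was still called lower in alpha cells (-0.41) but no longer in gamma cells (-0.18), and in delta cells (-0.89) it had too few UMIs left to be counted. The counts then were 2 higher and 1 lower in delta cells and 1 higher and 5 lower in gamma cells.

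Genes that act before or beside the module in the ER moved unevenly in beta cells between the libraries. Of 15 genes of the translocon and signal peptidase, which bring proteins into the ER, 11 lay above 0 with a median of 0.15, and 4 were called higher and 0 lower, to be read against the 11% and 11.8% of all genes called in beta cells. Sec11c, a signal peptidase subunit, went from 308 to 451 CPM (0.55), and Ssr4, a subunit of the complex beside the translocon, from 571 to 785 CPM (0.46). Of 10 genes of N-glycosylation 7 lay above 0 (median 0.13), and 1, Ostc of the oligosaccharyltransferase, was called higher at 250 and 312 CPM. Of 14 further degradation genes 5 lay above 0 (median -0.06), with 1 called higher and 0 lower, and of 13 genes of COPII export to the Golgi 7 did (median 0.01), with 2 called higher and 1 lower. Of 22 further ATF4 targets 3 lay above 0, with a median of -0.18, 6 called lower and 1 higher. Atf3, another factor of that response and also a dissociation stress gene, was at 135 and 93.4 CPM (-0.53), and Gdf15 at 2.35 and 1.38 CPM on 92 and 45 UMIs.

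Within each library, beta cells that held more insulin RNA had less of the chaperone branch per hormone-free UMI. The beta cells were cut into 5 bins of insulin UMIs, with medians of 6555 (bottom) and 21650.5 (top) in the wild type, 10647 and 30703 in the transgenic library. From the bottom to the top bin the chaperone branch ran 15572, 15584, 15310, 14764 and 13360 CPM in the wild type and 16377, 16716, 16215, 15496 and 13907 CPM in the transgenic library, -0.22 and -0.24 on the log2 scale. The level was flat over the lower bins and lowest in the top bin. The ATF4 branch ran 1946, 2125, 2117, 2179 and 1826 CPM and 2020, 2164, 2189, 2044 and 1689 CPM, highest in the middle bins (-0.09 and -0.26 from bottom to top). Of 37 members with enough UMIs, 11 were at least 20% lower in the top than in the bottom bin in both libraries and 2 were at least 25% higher, where 23.5% of 8959 genes were lower and 10.4% higher. The members' counts are therefore not far from the share of all genes. The median of all genes also lay below 0, at -0.17 and -0.12, and that of the members was -0.21 and -0.24.

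Of the 5 sensors and factors, Eif2ak3, Atf6, Ern1 and Xbp1 were called lower in the insulin-rich cells, and Atf6b was not (0.05 and 0.07). Eif2ak3 ran 81.2, 77.8, 76.1, 62.0 and 37.6 CPM in the wild type and 76.3, 82.8, 67.6, 52.8 and 34.6 CPM in the transgenic library, so that the top bin held less than the others in both (-1.11 and -1.14). Atf6 went from 107 to 55.8 CPM and from 67.4 to 49.6 CPM, and the ligase Syvn1 from 154 to 98.0 CPM and from 129 to 90.0 CPM. Hspa5 went from 3598 to 2789 CPM and from 3793 to 2914 CPM, the others called lower being Dnajb11, Creld2, Sel1l, Herpud1 and Edem1. In contrast, Fkbp11 ran 20.4, 22.3, 29.6, 37.9 and 57.4 CPM in the wild type and 42.4, 55.4, 58.5, 77.1 and 106 CPM in the transgenic library, higher in each next bin (1.49 and 1.33 from bottom to top). The second member called higher, Asns, went from 72.3 to 105 CPM and from 83.0 to 106 CPM. Pdia3 was also above 0 in both libraries (0.24 and 0.19) without passing the limit.

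Other properties of the cells changed across the same bins: the median hormone-free UMIs per cell went from 9749 to 15506.5 and from 9310 to 15948, mitochondrial UMIs from 4.98% to 2.26% and from 3.09% to 1.58%, and the dissociation stress list from 15696 to 23250 CPM and from 17860 to 23996 CPM. With the bins made within 10 strata of hormone-free UMIs, the chaperone branch was at -0.19 and -0.23 and the ATF4 branch at -0.29 and -0.38. Fkbp11 and Asns were again the 2 members called higher, and 10 were called lower (8.96% and 25% of all genes), which is near the share of all genes. Of 25 chaperone branch members with enough UMIs, 4 were called lower within the strata. Atf5, Ddit3 and Trib3 of the ATF4 branch joined the lower ones, and Hspa5, Dnajb11, Creld2 and Xbp1 were no longer among them. In bins of insulin share in place of insulin UMIs the counts were 2 and 15 (9.25% and 28.3% of all genes). Cell by cell, Spearman's rho between insulin UMIs and the level of the chaperone branch was -0.20 over 3193 wild type and -0.25 over 2624 transgenic beta cells, and for the ATF4 branch -0.02 and -0.14. Cells of a library share its handling. The branch level is divided by the cell's hormone-free UMIs, whereas the insulin count is not divided by anything and goes with depth. Against hormone-free UMIs, rho was -0.14 and -0.16 for the chaperone branch and 0.15 and -0.02 for the ATF4 branch.

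**Figure D4:**
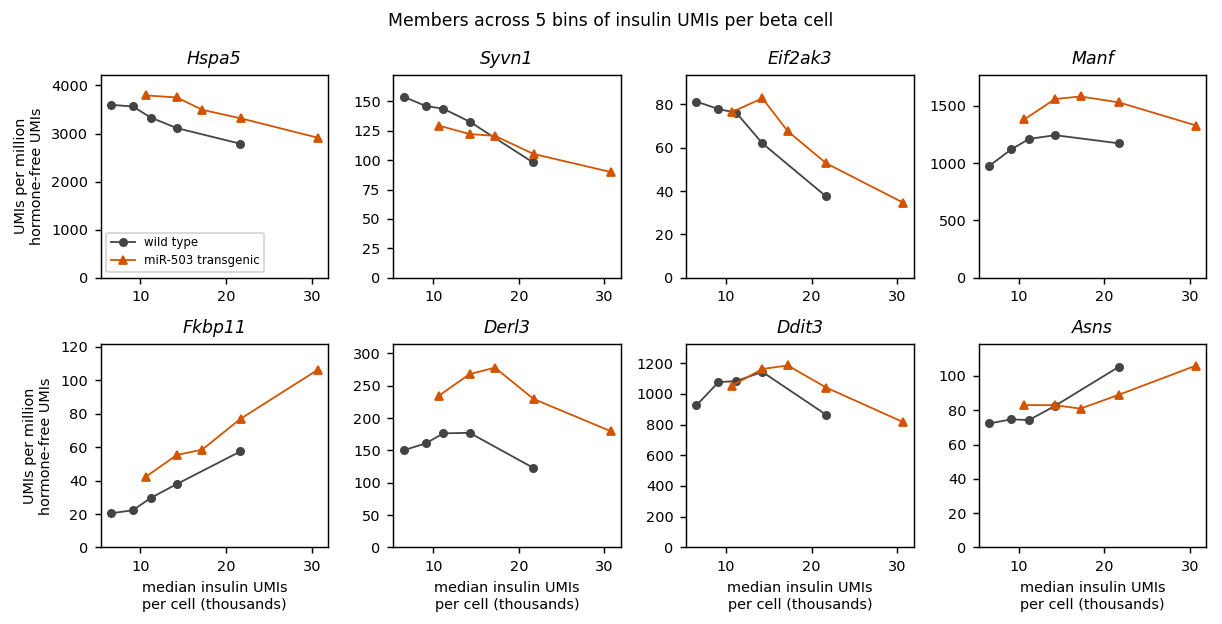
Level of 8 members in CPM against the median insulin UMIs per cell of 5 bins of beta cells, with circles for the wild type and triangles for the miR-503 transgenic library. Hspa5, Syvn1 and Eif2ak3 are lowest in the top bin, Fkbp11 climbs with each bin in both libraries, and Derl3, Manf and Fkbp11 lie higher in the transgenic library.

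Transgenic beta cells held more insulin RNA, a median of 17212 against 11198 insulin UMIs, so the genotypes were also set side by side in 5 bins with common edges. The chaperone branch was higher in the transgenic library in 5 of 5 bins, by 0.10, 0.07, 0.17, 0.16 and 0.18, a mean of 0.14 with each bin weighted alike. The ATF4 branch was lower in the bottom bin (-0.15), within 0.05 of 0 in the next 3 and higher in the top bin (0.12). Hspa5 was higher by 0.19 on this footing against 0.07 without it, and Herpud1 by 0.30 against 0.20. Fkbp11, which climbs with insulin, was higher by 0.63 against 1.01, with 19.8 and 49.2 CPM in the bottom bin and 66.2 and 97.3 CPM in the top bin. Derl3 (0.62), Sdf2l1 (0.31) and Manf (0.31) were higher in 5 of 5 bins, as was Kdelr3 (1.21), whose bottom bin rests on 49 and 9 UMIs. Atf5 (-0.45), Ero1l (-0.36) and the chaperone Calr (-0.09) were lower in 5 of 5 bins. Atf6, called lower without the bins (-0.37), was at -0.22 here, inside the limit, and lay above 0 in 2 of 5 bins. The level of all genes in the common bins was not computed. Cells of like insulin content also differed in depth. Where a bin of each library's own cut had a median of 14247 insulin UMIs, the median hormone-free UMIs were 12109 in the wild type and 10042 in the transgenic library. The part of depth in these ratios was not tested. The bottom bin held 1011 wild type and 152 transgenic cells and the top bin 340 and 825, so the bins do not weigh the libraries alike.

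Within each library the members of the chaperone branch varied together from cell to cell. For the ranking, the Hspa5 count of each beta cell was thinned to a depth of 4000 hormone-free UMIs, which left out 53 and 22 shallower cells. The cells were ranked by this thinned count, and all levels were taken from their full counts. Between the bottom and the top 1 of 5 bins (median 7 against 20 thinned Hspa5 UMIs in the wild type, 7 against 22 in the transgenic library), the chaperone branch without Hspa5 went from 9696 to 13346 CPM and from 10138 to 14145 CPM, 0.46 and 0.48 on the log2 scale. The ATF4 branch went from 1900 to 2051 CPM and from 1755 to 2110 CPM, 0.11 and 0.27. Of 36 members with enough UMIs, 15 were at least 25% higher in the Hspa5-rich cells in both libraries and 1 was lower, where 6.32% of 8800 genes were higher and 1.52% lower. None of the 15 belongs to the ATF4 branch.

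Creld2, a protein known to be induced by ER stress, was the widest in both libraries (0.85 and 0.82). Pdia4 (0.77 and 0.65), Herpud1 (0.68 and 0.80), Eif2ak3 (0.77 and 0.67) and Syvn1 (0.74 and 0.62) were also above 0.6 in both libraries. The transcription factor Xbp1, nearly level between beta and alpha cells, was higher by 0.51 and 0.50. Fkbp11 was the one member past the limit on the low side (-0.49 and -0.49). Hspa5-rich cells held less insulin RNA, a median of 10005.5 against 13041.5 insulin UMIs in the wild type and 15580 against 20605 in the transgenic library. Their hormone-free UMIs were also fewer, 10905.5 against 12408.5 and 10853.5 against 12307, and their mitochondrial share was 3.60% against 2.96% and 1.97% against 1.91%. The part of these measures in the result was not tested. Of the 8 other genes with ERSE letters, 5 were among the 15 (Hsp90b1, Calr, Creld2, Syvn1 and Derl3), and so were 8 of 21 members whose promoter held no such letters.

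**Figure D5:**
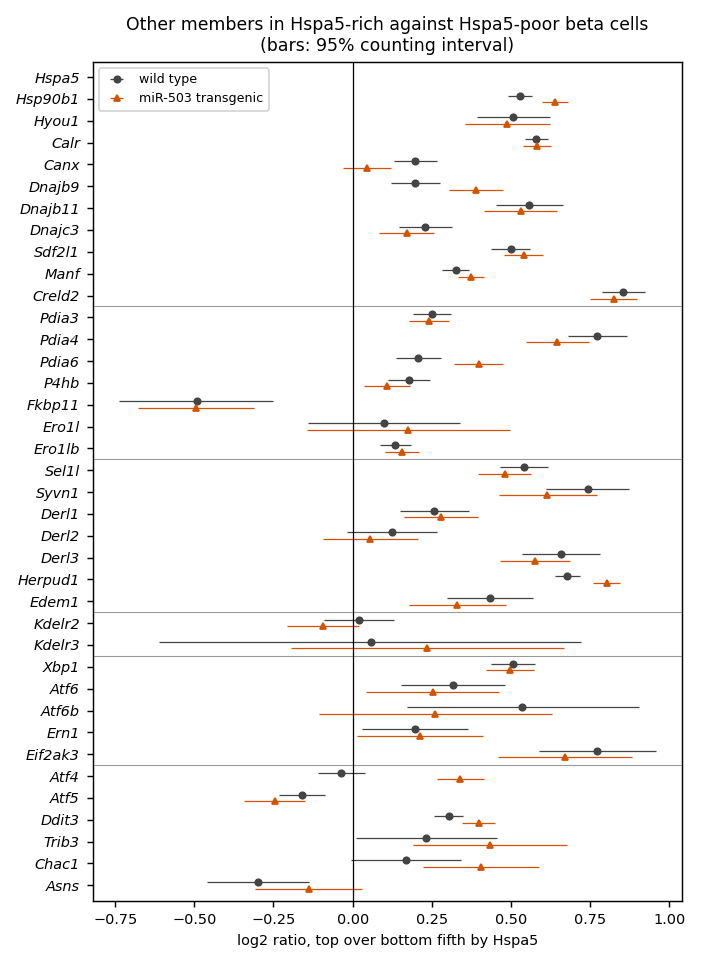
Log2 ratio of each other member, from full counts, between the top and bottom of 5 bins of beta cells ranked by the thinned Hspa5 count, with circles for the wild type and triangles for the miR-503 transgenic library and bars for the 95% counting interval. Creld2, Pdia4, Syvn1, Herpud1 and Eif2ak3 are among those farthest right, no ATF4 branch member passes the limit in both libraries although Atf4, Ddit3, Trib3 and Chac1 lie at 0.34 to 0.43 in the transgenic one, and Fkbp11 lies left in both libraries.

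Within the ATF4 branch, Chac1 and Trib3 differed most between cells rich and poor in the rest of the branch. Cells were cut into 3 bins of the branch sum without the member looked at. Chac1 went from 50.2 to 100 CPM in the wild type and from 61.8 to 99.2 CPM in the transgenic library (0.999 and 0.68), and Trib3 from 30.5 to 58.0 CPM and from 37.8 to 58.0 CPM (0.93 and 0.62). Ddit3 (0.36 and 0.29) and Atf4 (0.47 and 0.37) moved less, and Asns hardly at all (0.10 and -0.05). The sum used for ranking differs by member, so these ratios are not on one footing. Its median count in the bottom and top bins was 2 and 6 for Ddit3 and 4 and 11 for Chac1 in both libraries. In the same comparison Hspa5 differed by 0.01 and 0.15, and 22 of the 26 chaperone branch members lay above 0 in both libraries, with a median of 0.09 and 0.22. The widest of these in the 2 libraries was Derl3 (0.32 and 0.60), and Fkbp11 (-0.27 and -0.32) and Kdelr3 (-0.19 and -0.02) lay below 0 in both. The level of all genes across these bins was not computed, so neither these ratios nor the count of 22 can be set against a background.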

How the data were processed

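The 2 libraries, made with 10x Chromium 3 prime reagents, were analysed from the raw UMI counts the authors deposited. The submitters' processing notes name Cell Ranger 2.1.0, the aligner STAR 2.5.1b and the build mm10; the annotation release and the barcode filter are not given in the sources used here. Cells were kept with at least 500 genes, 1000 UMIs and at most 10% mitochondrial UMIs, and the top 4% of Scrublet doublet scores per library were removed (181 and 166 cells; scanpy 1.11.5, Python 3.11.15). Classes were cut from hormone shares, as the report states, and a cut is a range: 89 wild type and 11 transgenic cells lay between 20% and 25% insulin and 102 and 9 between 25% and 30%. UMIs were summed per library and class and divided by hormone-free UMIs. A 3 prime count is not scaled by gene length. Intervals are exact conditional binomial ones at 95%. A run on simulated Poisson counts checked the calculation alone, because such counts hold no spread between cells, mice or libraries. Called means at least 25% higher or 20% lower (1.5-fold between classes, in both libraries) with at least 100 UMIs.

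The members, lists, bins and limits were chosen with earlier results of these data known. Every member is accounted for, those past the fold limit by name, and of each other list at most the 2 genes with the largest genotype ratio in beta cells, in either direction and with at least 100 UMIs, are named. Alternatives were TMM scaling (edgeR 4.0.16, R 4.3.3), total UMIs, a mean over cells, other cell filters, no UMI minimum, and other insulin bins. Promoters came from RefSeq. For 30 of the 34 promoters of members, bases just after the RefSeq start occurred in the first part of a transcript of that gene in the GRCm38 annotation. This checks orientation and rough place, and does not show that the RefSeq start and the annotated start coincide. No test across samples was possible with 1 library per genotype.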

Additional observations from a re-analysis of the deposited data

Results flagged for a closer look

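Fkbp11 was higher in the transgenic library in beta cells, by 1.01 on the log2 scale, and lower in alpha cells (-0.51) and gamma cells (-0.62). It stands out because classes of the same libraries moved in opposite directions. Kdelr3 did so as well, with 1.45 in beta cells and -0.41 in alpha cells, where its counting interval reaches 0.01. Neither difference between classes was tested, since each class has 1 library per genotype. The counting interval of the beta minus alpha difference ran from 1.12 to 1.93 for Fkbp11 and from 1.39 to 2.32 for Kdelr3.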

How the results depend on the processing

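No paired analysis was possible because the labels give 1 library per genotype and no replicate numbers, and no library could be left out for the same reason. Total UMI scaling moved most values. In the genotype comparison it put the chaperone branch at -0.24 in beta, -0.18 in alpha and -0.34 in gamma cells and the ATF4 branch at -0.34 in beta and -0.52 in gamma cells, with 2 members higher and 15 lower in beta cells and 0 and 22 in gamma cells. Of all genes, 429 were then higher and 6110 lower of 11902 in beta cells, and 119 and 1356 of 3886 in gamma cells. Between classes total UMI scaling put the chaperone branch (wild type, then transgenic) at 0.32 and 0.26 over alpha, 0.11 and -0.10 (the one change of direction between classes) over delta, and 0.44 and 0.54 over gamma cells, and the ATF4 branch at 1.18 and 1.02, 0.76 and 0.75, and 0.97 and 1.15. Members called higher and lower were 14 and 1 over alpha and 11 and 4 over delta cells, and the share of all genes is not given for these counts. TMM scaling gave 0.84 and 1.06 (chaperone) and 1.70 and 1.82 (ATF4) over alpha, 1.12 and 1.20 and 1.77 and 2.04 over delta, and 0.95 for the wild type chaperone branch over gamma cells. Subtracting beta cell RNA, added after seeing the data, gave 1.02 and 1.21 (chaperone) and 1.99 and 2.04 (ATF4) over alpha, 0.99 and 1.03 and, for the wild type ATF4 branch, 1.77 over delta, and 1.04 and 1.19 and 1.71 and 1.89 over gamma cells; between genotypes it gave 0.039 (delta) and -0.074 (gamma) for the chaperone branch, 2 higher and 1 lower in delta and 5 lower in gamma cells. A limit of 5% mitochondrial UMIs gave 0.087 for the chaperone branch between genotypes in beta cells, 2 higher and 5 lower in gamma cells, 0.94 for the wild type chaperone branch over gamma cells and -0.23 for the wild type ATF4 branch across insulin bins. A mean over cells gave 0.080 (chaperone) and 0.0029 (ATF4) between genotypes in beta cells, 2 higher in alpha, 2 in delta and 3 in gamma cells, 0.93 for the wild type chaperone branch over alpha and 1.69 for the wild type ATF4 branch over delta cells. No UMI minimum gave 3 higher and 6 lower in delta and 3 higher in gamma cells. Keeping cells that passed several limits gave 3 higher in gamma cells and 1.05 for the transgenic chaperone branch over delta cells. Keeping the cells scored as doublets gave 0.92 and 1.15 for the chaperone branch and 1.75 for the wild type ATF4 branch over alpha cells. Across insulin bins, depth strata gave -0.19 for the wild type chaperone branch and -0.29 and -0.38 for the ATF4 branch, and bins of insulin share -0.34 and -0.42 for the ATF4 branch. The cause of these shifts was not tested, beyond what each alternative changes by construction. Of the recomputed values of branches and counts, 193 kept their direction and stayed near the reported value, 74 moved and 1 was counted as reversed. Of the further recomputed values, 181 stayed near the reported value and 47 moved. Delta and gamma cells limit the depth: 3 UMIs over the class equal 4.19 and 3.35 CPM in delta and 1.81 and 2.47 CPM in gamma cells.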
